A study of Mus musculus with 43 samples.

Results

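Cholesterol and fatty acid synthesis in cortical glia was followed through 32 genes, taken by gene symbol from the 55416 genes counted in each of 43 libraries. All 32 had a row in every library. They were 18 sterol synthesis enzymes (7 of the mevalonate stage, 3 of the squalene stage and 8 that rework the sterol ring), 5 genes of the SREBP control circuit, the sterol transfer gene Stard4, 3 genes of fatty acid synthesis and 5 genes of fatty acid elongation and desaturation. The list was one of names and used no measured threshold.

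Cells build cholesterol from acetyl-CoA by way of mevalonate, isoprenoid units, squalene and lanosterol, and they build saturated fatty acids from acetyl-CoA by way of malonyl-CoA before elongases lengthen them and desaturases add double bonds. Both routes answer to the SREBP transcription factors, which Scap carries from the endoplasmic reticulum to the Golgi for activation when membrane sterol is low and which the Insig proteins hold back when sterol is plentiful. The brain makes its own cholesterol because lipoproteins of the blood do not cross the blood-brain barrier. Oligodendrocytes need sterol and long fatty acids for myelin, and astrocytes make sterol that they export in apolipoprotein E particles.

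Oligodendrocytes, oligodendrocyte precursor cells (OPCs), astrocytes and microglia were sequenced from the cerebral cortex of mice aged 3 months that had or lacked lymphocytes, to ask whether glial transcription depends on peripheral lymphocytes. The Rag2-/- mice carried 2 copies of the Rag2tm1.1Cgn null allele (line B6.Cg-Rag2tm1.1Cgn/J crossed with C57BL/6J), which stops antigen receptor rearrangement and so leaves no mature B or T cells. The littermate controls were Rag2+/- in pairs 1, 2, 3 and 5 and Rag2+/+ in pairs 4 and 6. Cells were captured on antibody-coated dishes (immunopanning) directly from a dissociated, perfused cortex, so a library holds whatever bound the dish. There were 8 oligodendrocyte libraries (4 control, 4 Rag2-/-; pairs 1, 3, 5 and 6), 11 OPC libraries (6 control, 5 Rag2-/-), 12 astrocyte libraries (6 and 6) and 12 microglia libraries (6 and 6). The mice of pairs 2 and 5 and the Rag2-/- mouse of pair 6 were female, and all others were male, which gave 3 female and 5 male oligodendrocyte libraries, 4 and 7 OPC libraries, and 5 and 7 libraries of each of the other cell types.

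Counts on genes ranged from 6499417 to 23118497 per library (median 10447042). No read fell on Rag2 in any of the 21 Rag2-/- libraries, and 3 of the 22 control libraries held between them 6 reads, so the counts of this weakly expressed gene match the labels but say little. Mitochondrially encoded transcripts took 45.8 to 60.1% of the counts in oligodendrocytes, 22.5 to 45.1% in astrocytes, 22.4 to 36.7% in OPCs and 6.75 to 11.7% in microglia. Each set of 8 marker genes peaked in the cell type it marks, and other cells were present. The 8 OPC markers stood in astrocyte libraries at 2.25 to 98.3% of their level in OPC libraries (median 3.03%). The 8 oligodendrocyte markers stood in astrocyte libraries at 14.05 to 33.7% of their level in oligodendrocyte libraries, and 8 neuron markers summed to 623 to 3105 CPM in oligodendrocyte libraries against at most 679 CPM elsewhere. All libraries of a cell type shared a sequencing lane, so the effect of a lane cannot be told apart from that of a cell type. In these bulk libraries, fewer cells of a type and less RNA per cell cannot be told apart either.

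Astrocytes held the highest levels of the sterol pathway and microglia the lowest. Levels are read counts scaled to library size (CPM), with TMM factors over all 43 libraries so that most genes match between libraries. The 18 sterol enzymes summed to 2171 ± 219 CPM in astrocytes (SD, n = 12), 798 ± 155 CPM in OPCs (n = 11), 721 ± 105 CPM in oligodendrocytes (n = 8) and 192 ± 17.7 CPM in microglia (n = 12). The sum of the 5 elongation and desaturation genes followed another order, with 3259 ± 720 CPM in oligodendrocytes, 2740 ± 325 CPM in astrocytes, 1194 ± 131 CPM in OPCs and 136 ± 10.1 CPM in microglia. Scd2 and Scd1 made up most of the first 2 sums, with medians of 2403 and 678 CPM in oligodendrocytes and 2048 and 313 CPM in astrocytes. Elovl5 went the other way (means of 118 and 379 CPM), while Elovl1 and Elovl6 had higher means in oligodendrocytes. With total counts in place of TMM, Scd2 was −0.39 on the log2 scale in oligodendrocytes against astrocytes, Elovl1 was 0.30 and Elovl6 was 0.14. The sums of these 5 genes were not compared on that scale. The lowest astrocyte library stood at 1922 CPM for the sterol enzymes, above the highest library of any other cell type at 1111 CPM. For elongation and desaturation, the oligodendrocyte libraries (2189 to 4179 CPM) and the astrocyte libraries (2233 to 3199 CPM) overlapped.

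By mean level, 25 of the 32 genes were highest in astrocytes, 6 in oligodendrocytes (Ebp, Scap, Acaca, Scd1, Scd2 and Elovl6) and 1 in microglia (Elovl1). A total of 29 were lowest in microglia, Ebp and Elovl1 were lowest in OPCs, and Acly was lowest in oligodendrocytes. A difference between cell types was called when the adjusted p was under 0.05 (edgeR's quasi-likelihood test, Benjamini-Hochberg over the 21368 genes tested, with sex as a covariate). By that rule 21 of the 32 genes were above all 3 other cell types in astrocytes, beside 8.56% of all genes tested. In oligodendrocytes 2 were above all 3 others (Ebp and Scd1), beside 7.5% of all genes, and in microglia 26 were below all 3 others, beside 23.7%. The ratio of the highest to the lowest cell type mean ran from 204 for Idi1 and 151 for Scd1 down to 2.04 for Acly, 1.78 for Scap and 1.72 for Insig2. The ratio for Idi1 rests on 1 to 14 reads in each microglia library.

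**Figure D1:**
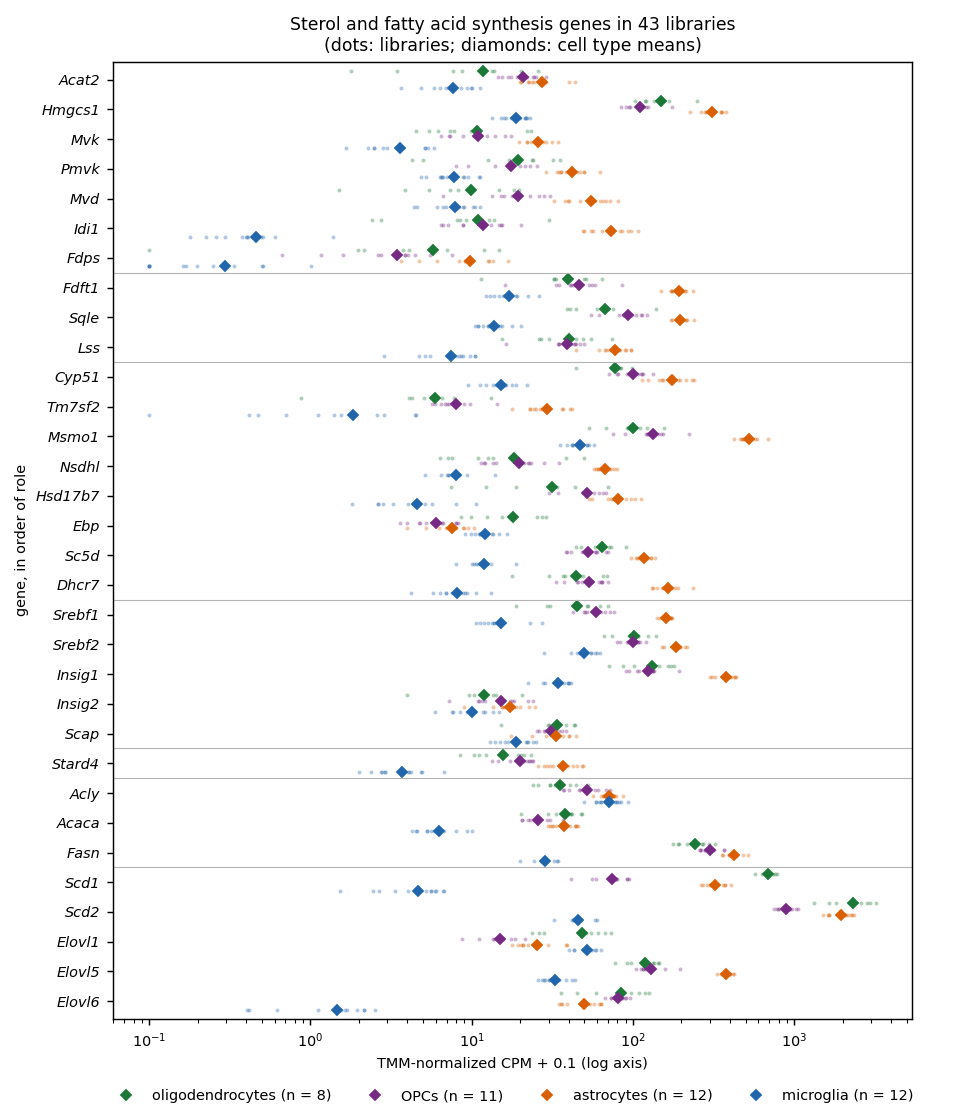
TMM-normalized CPM plus 0.1 on a log axis for each of the 32 genes in order of role, with a dot for each of the 43 libraries and a diamond for the mean of each cell type. The orange astrocyte diamonds lie furthest to the right for 25 genes, the blue microglia diamonds lie furthest to the left for 29, and the ratio between the ends is 204 for Idi1 and 1.72 for Insig2.

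Pair by pair, the genes moved against the background as follows. Against microglia, astrocytes were higher for 29 of the 32 genes and lower for 2, where 36.5% and 33.5% of all genes tested were called higher and lower, and the median log2 fold change was 3.44 over the 32 and 0.09 over all genes. OPCs were higher than microglia for 29 and lower for 3 (38.7% and 30.8% of all genes), with medians of 2.02 and 0.18. Oligodendrocytes were higher than microglia for 27 and lower for 1 (33.2% and 34.8% of all genes), with medians of 1.88 and −0.09. Most of the 32 genes were therefore called in the same direction against microglia, whichever cell type microglia were compared with.

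Against astrocytes, OPCs were lower for 27 genes and higher for 1, where 17.1% and 25.4% of all genes were lower and higher, and the medians were −1.14 over the 32 and 0.14 over all genes. Oligodendrocytes were lower than astrocytes for 24 and higher for 4 (24% and 25.7% of all genes), with medians of −1.20 and −0.01. Between oligodendrocytes and OPCs the split was 6 higher and 9 lower in oligodendrocytes (15.7% and 25% of all genes), with medians of −0.17 and −0.24, so the 32 genes as a list stood close to the background there. The libraries of the pair did not overlap at all for 28 genes between astrocytes and microglia (34.4% of all genes), 25 between OPCs and microglia (34.9%), 16 between oligodendrocytes and microglia (25.9%), 20 between OPCs and astrocytes (13%), 18 between oligodendrocytes and astrocytes (11.8%) and 4 between oligodendrocytes and OPCs (8.28%).

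Scaling to total counts in place of TMM moved the median of all genes by −1.01 between oligodendrocytes and OPCs, −0.63 between oligodendrocytes and astrocytes, −0.89 between oligodendrocytes and microglia, 0.39 between OPCs and astrocytes, 0.12 between OPCs and microglia and −0.26 between astrocytes and microglia. On that scale oligodendrocytes were higher than OPCs for 4 of the 32 genes and lower for 27 (4.63% and 63.9% of all genes), higher than astrocytes for 2 and lower for 28 (14.4% and 44.3%), and higher than microglia for 19 and lower for 4 (21.7% and 52.4%). OPCs were higher than astrocytes for 1 and lower for 22 (41.1% and 10.8%), and higher than microglia for 29 and lower for 3 (40.7% and 28.1%). Astrocytes were higher than microglia for 29 and lower for 3 (31.5% and 38.4%). The place of oligodendrocytes relative to OPCs depended on the scale.

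Each call was followed through 16 other settings, which were other scalings, filters and tools, the mouse as a block, the libraries of 1 genotype, and single oligodendrocyte libraries left out. Between oligodendrocytes and OPCs, 4 of the 15 calls held in every setting (Ebp, Scd1, Scd2 and Elovl1). The count was 24 of 28 between oligodendrocytes and astrocytes, 20 of 28 between oligodendrocytes and microglia, 21 of 28 between OPCs and astrocytes, 30 of 32 between OPCs and microglia and 30 of 31 between astrocytes and microglia. The 8 calls of oligodendrocytes over microglia that did not hold (Pmvk, Fdft1, Tm7sf2, Msmo1, Nsdhl, Ebp, Srebf2 and Scap) were each lost with total counts. Of OPCs under astrocytes, Hsd17b7, Acly, Acaca, Fasn and Elovl1 were lost on that scale.

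**Figure D2:**
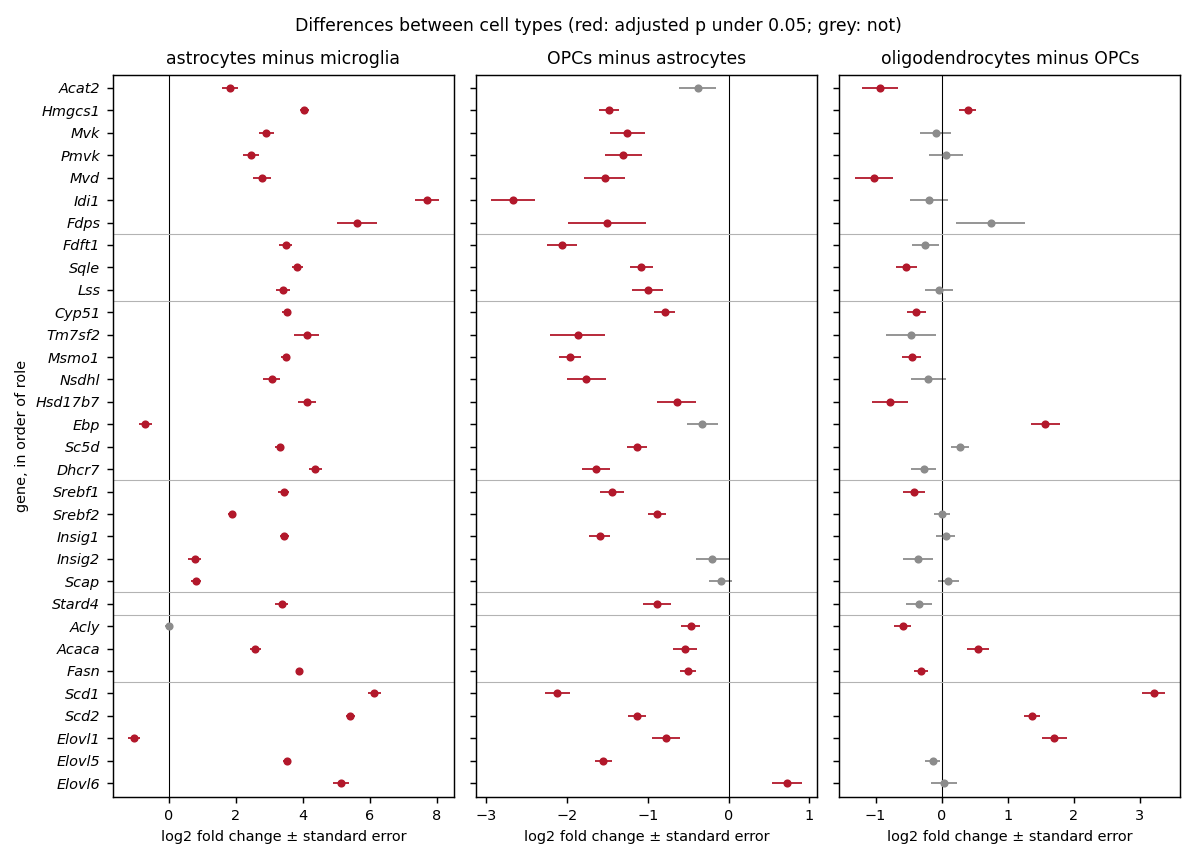
Log2 fold change with its standard error for each gene in astrocytes minus microglia, OPCs minus astrocytes and oligodendrocytes minus OPCs, from one fit of 43 libraries, red where the adjusted p was under 0.05. In the first panel 29 points are red and to the right of 0, in the second 27 are red and to the left, and in the third 6 are red to the right and 9 to the left.

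The mevalonate stage turns acetyl-CoA into farnesyl diphosphate through Acat2 (acetoacetyl-CoA thiolase), Hmgcs1 (HMG-CoA synthase), Mvk, Pmvk and Mvd (the kinases and the decarboxylase that yield isopentenyl diphosphate), Idi1 (its isomerase) and Fdps (farnesyl diphosphate synthase). All 7 had their highest mean in astrocytes. Hmgcs1 ranged from 226 to 377 CPM in astrocytes (median 313), 103 to 249 CPM in oligodendrocytes (median 141), 83.8 to 175 CPM in OPCs (median 110) and 13.2 to 22.98 CPM in microglia (median 19.4). Every microglia library lay below every library of the other types. Hmgcs1 was called higher in oligodendrocytes than in OPCs (log2 0.40, adjusted p 0.0126, edgeR), a call lost without the Rag2-/- oligodendrocyte library of pair 5 (0.25, adjusted p 0.112) and turned to −0.65 with total counts.

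Idi1 spanned the widest range of all 32 genes. It stood between 49.0 and 108 CPM in astrocytes (median 69.9), 6.31 and 20.2 CPM in OPCs (median 12.1), 2.30 and 29.9 CPM in oligodendrocytes (median 8.80) and 0.0803 and 1.27 CPM in microglia (median 0.301). The astrocyte libraries lay wholly above the rest and the microglia libraries, at 1 to 14 reads each, wholly below, while OPC and oligodendrocyte libraries overlapped. Its log2 fold change was 7.69 ± 0.36 (SE) between astrocytes and microglia (adjusted p 1.78e-22, edgeR), 5.03 ± 0.34 between OPCs and microglia (6.3e-17), −2.67 ± 0.27 between OPCs and astrocytes (5.81e-11) and −2.86 ± 0.31 between oligodendrocytes and astrocytes (2.94e-10). Idi1 fell below the filter on low counts in microglia alone and entered this fit through cell types where it is higher. The size of its differences from microglia therefore rests on few reads. Exact copies elsewhere in the genome cover 93.8% of the 50-base windows of the Idi1 transcript, and reads that aligned in several places were set aside, so its level is too low in every library and was not compared with that of other genes.

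Fdps had the same limit, with copies for 59.5% of its windows, and few reads. It averaged 9.62 ± 3.84 CPM in astrocytes, 5.63 ± 5.17 CPM in oligodendrocytes, 3.36 ± 2.01 CPM in OPCs and 0.194 ± 0.269 CPM in microglia, where libraries held 0 to 9 reads. Astrocytes exceeded microglia by 5.61 ± 0.60 on the log2 scale (adjusted p 4.44e-11, edgeR), but neighbours in the order astrocytes, oligodendrocytes, OPCs were not called different (adjusted p 0.230 and 0.260). Fdps too fell below the filter in microglia alone, so the size of its difference from microglia rests on few reads.

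Mvd was the gene of this stage that separated oligodendrocytes from OPCs most. Its libraries ran from 32.2 to 81.1 CPM in astrocytes (median 57.0), 6.496 to 30.4 CPM in OPCs (median 18.1), 1.41 to 19.6 CPM in oligodendrocytes (median 7.68) and 4.29 to 11.2 CPM in microglia (median 7.88). Oligodendrocytes were lower than OPCs by a log2 fold change of −1.03 ± 0.29 (adjusted p 0.00377, edgeR) and lower than astrocytes by −2.56 ± 0.30 (1.98e-09), and they were not called different from microglia (0.496). With control libraries alone the difference from OPCs was −0.54 and not called (0.271). Acat2 followed with means of 27.2 ± 7.46 CPM in astrocytes, 20.7 ± 4.52 CPM in OPCs, 11.7 ± 8.19 CPM in oligodendrocytes and 7.58 ± 2.28 CPM in microglia, and with −0.93 ± 0.27 between oligodendrocytes and OPCs (adjusted p 0.00528), which was −0.50 with Rag2-/- libraries alone (0.301). Mvk (25.8 CPM in astrocytes, 10.9 in OPCs, 10.7 in oligodendrocytes, 3.51 in microglia) and Pmvk (41.8, 17.3, 19.2 and 7.64 CPM) were above all others in astrocytes and below all others in microglia, with OPCs and oligodendrocytes not called different (adjusted p 0.797 and 0.855).

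In the squalene stage, Fdft1 joins 2 farnesyl diphosphates into squalene, Sqle oxidises squalene in a rate-limiting step, and Lss closes the ring to lanosterol. All 3 were above every other cell type in astrocytes and below every other in microglia. Fdft1 averaged 192 ± 23.2 CPM in astrocytes, 45.9 ± 17.6 in OPCs, 39.4 ± 16.02 in oligodendrocytes and 17.02 ± 4.03 in microglia. Its astrocyte libraries (150 to 235 CPM) did not overlap any other group, and OPCs were lower than astrocytes by −2.06 ± 0.19 on the log2 scale (adjusted p 4.44e-12, edgeR). Overlap with Ctsb covers 24.8% of the exonic bases of Fdft1, and how the counting treated overlaps and strand is not given in the sources used here.

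Sqle had a graded order. It ranged from 172 to 238 CPM in astrocytes (median 191), 54.7 to 123 CPM in OPCs (median 96.3), 39.2 to 138 CPM in oligodendrocytes (median 63.5) and 10.4 to 20.2 CPM in microglia (median 13.03). Each step of that order was called (adjusted p 2.49e-08, 0.00553 and 1.37e-16, edgeR), but OPC and oligodendrocyte libraries overlapped, and their step was −0.056 with control libraries alone (adjusted p 0.885). Lss averaged 77.7 ± 15.8 CPM in astrocytes and 7.37 ± 2.43 CPM in microglia, with oligodendrocytes (40.1 ± 19.1) and OPCs (38.98 ± 9.11) not called different (adjusted p 0.910). Lss in oligodendrocytes was not called below astrocytes with control libraries alone (−0.64, adjusted p 0.122).

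Of the 8 genes that rework the sterol ring, 7 shared the astrocyte maximum: Cyp51 (lanosterol demethylase), Tm7sf2 (a sterol reductase), Msmo1, Nsdhl and Hsd17b7 (which together remove the methyl groups at carbon 4), Sc5d (a desaturase) and Dhcr7 (the reductase of the last step of one branch). Msmo1 stood at 199.5 CPM per kilobase of transcript in astrocytes, the highest level per length among the sterol enzymes with at most 30% of their windows copied elsewhere. Its libraries held 421 to 684 CPM in astrocytes (median 503), 75.4 to 223 CPM in OPCs (median 133), 53.1 to 156 CPM in oligodendrocytes (median 96.9) and 35.4 to 57.4 CPM in microglia (median 47.7). Astrocytes stood apart from all other libraries, and the 3 remaining groups formed an overlapping series whose steps were all called. The step from OPCs to oligodendrocytes was lost in control (adjusted p 0.0885, edgeR) and in Rag2-/- libraries alone (0.156), and that from oligodendrocytes to microglia with total counts (0.17, adjusted p 0.344). Oligodendrocytes were lower than astrocytes by −2.41 ± 0.16 on the log2 scale (adjusted p 1.79e-16, edgeR).

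Hsd17b7 was also graded, with means of 80.4 ± 17.9 CPM in astrocytes, 51.9 ± 11.6 CPM in OPCs, 31.2 ± 19.7 CPM in oligodendrocytes and 4.50 ± 2.51 CPM in microglia. Oligodendrocytes were lower than OPCs by −0.79 ± 0.27 (adjusted p 0.0195, edgeR), a call lost without the Rag2-/- oligodendrocyte library of pair 6 (−0.66, adjusted p 0.0575) and with Rag2-/- libraries alone (−0.41, 0.448), with a range of 4.73e-06 to 0.448 over all settings. The step from astrocytes to OPCs (adjusted p 0.0281) was lost with the mouse as a block (0.0515). Cyp51 (175, 100.3, 77.8 and 15.2 CPM in astrocytes, OPCs, oligodendrocytes and microglia) was called at each step as well, but the step from OPCs to oligodendrocytes (−0.38, adjusted p 0.0291) was lost with DESeq2 (0.0853) and without the control oligodendrocyte library of pair 5 (0.0981) or the Rag2-/- one of pair 3 (0.0756). Of its exonic bases, 24.6% lie under other genes, mainly Akap9. Dhcr7 (165, 53.4, 44.0 and 7.98 CPM), Nsdhl (66.6, 19.5, 18.2 and 7.95 CPM), Tm7sf2 (29.2, 7.92, 5.84 and 1.73 CPM) and Sc5d (116, 52.8, 64.2 and 11.7 CPM) had astrocytes on top, microglia at the bottom, and OPCs and oligodendrocytes not called different.

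Ebp, the sterol isomerase of the same stage, ran against the other ring genes. It ranged from 8.53 to 28.7 CPM in oligodendrocytes (median 16.3), 8.94 to 16.4 CPM in microglia (median 11.4), 3.88 to 10.3 CPM in astrocytes (median 7.62) and 3.498 to 8.13 CPM in OPCs (median 6.31). Every oligodendrocyte library exceeded every OPC library, while oligodendrocytes overlapped microglia and astrocytes. The log2 fold changes were 1.57 ± 0.21 for oligodendrocytes over OPCs (adjusted p 9.63e-08, edgeR), 1.24 ± 0.21 for oligodendrocytes over astrocytes (3.37e-06), −1.03 ± 0.19 for OPCs against microglia (1.21e-05) and −0.70 ± 0.19 for astrocytes against microglia (0.00119), the last lost with Rag2-/- libraries alone (−0.49, 0.108). Oligodendrocytes over microglia, at 0.55 (0.0196), was lost without the control oligodendrocyte library of pair 1 (0.0873) or 3 (0.101) or the Rag2-/- one of pair 1 (0.141), and was −0.34 with total counts (0.181). Of the 18 sterol enzymes, Ebp was the 1 with a mean in microglia above that in astrocytes.

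The 5 regulators did not move as a block. Srebf1 encodes SREBP1, known mainly for fatty acid genes, and Srebf2 encodes SREBP2, known mainly for sterol genes. Srebf1 ranged from 141 to 175 CPM in astrocytes (median 161), 42.5 to 76.7 CPM in OPCs (median 59.8), 18.8 to 69.9 CPM in oligodendrocytes (median 47.1) and 10.6 to 27.3 CPM in microglia (median 13.7). Srebf2 ranged from 151 to 217 CPM in astrocytes (median 181), 79.5 to 120 CPM in OPCs (median 105), 66.2 to 138 CPM in oligodendrocytes (median 103) and 27.99 to 62.6 CPM in microglia (median 49.7). For both genes the astrocyte libraries lay above all others, and for Srebf2 the microglia libraries lay below all others.

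Srebf1 spanned more than Srebf2. Between astrocytes and microglia the log2 fold change was 3.43 ± 0.16 for Srebf1 and 1.89 ± 0.11 for Srebf2. Between oligodendrocytes and astrocytes it was −1.86 ± 0.17 (adjusted p 5.12e-12, edgeR) and −0.88 ± 0.12 (9.52e-08), and between OPCs and astrocytes −1.44 ± 0.15 and −0.88 ± 0.11. Against microglia, oligodendrocytes were higher by 1.57 ± 0.16 and 1.02 ± 0.12, and OPCs by 1.99 ± 0.15 and 1.01 ± 0.11, in the same order. With total counts the Srebf2 difference between oligodendrocytes and microglia was 0.098 (adjusted p 0.529). The difference between the genes was not tested.

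Between oligodendrocytes and OPCs, Srebf2 differed by 0.01 ± 0.12 (adjusted p 0.977, edgeR) and Srebf1 by −0.42 ± 0.17 (0.0411). The Srebf1 call was lost with the mouse as a block (−0.40, adjusted p 0.101), with DESeq2 size factors (−0.36, 0.0744), and without the control oligodendrocyte library of pair 5 (0.0545) or 6 (0.0797) or the Rag2-/- one of pair 5 (0.0731) or 6 (0.141). Over all settings its adjusted p ran from 8.22e-08 to 0.360.

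Insig1 and Insig2 encode the proteins that retain SREBP and Scap in the endoplasmic reticulum, and Insig1 is itself a known SREBP target. Insig1 ranged from 299 to 436 CPM in astrocytes (median 378), 71.5 to 180 CPM in oligodendrocytes (median 139), 90.7 to 193 CPM in OPCs (median 127) and 22.2 to 41.2 CPM in microglia (median 35.2). Insig2 ranged from 8.87 to 24.5 CPM in astrocytes (median 16.6), 7.14 to 23.9 CPM in OPCs (median 14.7), 3.88 to 20.3 CPM in oligodendrocytes (median 11.4) and 5.86 to 14.6 CPM in microglia (median 9.76). Insig1 formed 3 separate bands (astrocytes, then oligodendrocytes with OPCs, then microglia), whereas the Insig2 libraries of the 4 cell types overlapped.

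Astrocytes exceeded microglia by 3.45 ± 0.14 on the log2 scale for Insig1 and by 0.78 ± 0.20 for Insig2 (adjusted p 0.000689, edgeR). Insig1 was lower than in astrocytes by −1.53 ± 0.15 in oligodendrocytes and −1.59 ± 0.13 in OPCs, and differed by 0.06 ± 0.14 between these (adjusted p 0.768). Insig2 differed between neighbours in its order by too little to be called (adjusted p 0.456, 0.211 and 0.394). OPCs exceeded microglia by 0.58 ± 0.20 (adjusted p 0.0114), a call lost with control (0.42, 0.254) or Rag2-/- libraries alone (0.60, 0.0521). Oligodendrocytes were under astrocytes by −0.56 ± 0.23 (0.0374), which was lost with the mouse as a block (0.0851) and without the control oligodendrocyte library of pair 3 (0.0534) or the Rag2-/- one of pair 6 (0.0612) and in either genotype alone, with a range of 1.74e-05 to 0.245 over all settings. Scap, the carrier of SREBP, averaged 33.5 ± 9.19 CPM in oligodendrocytes, 33.1 ± 7.34 CPM in astrocytes, 30.8 ± 4.18 CPM in OPCs and 18.8 ± 4.00 CPM in microglia. Scap was called lower in microglia than in each other type and not called different among these.

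The promoters of the 4 genes are shown because they differ in range across cell types while serving 1 circuit. A promoter here is up to 250 bases before the start of the canonical transcript (GRCm39, GENCODE M39), printed 5′ to 3′ on the strand of the gene, without bases that lie in exons of protein-coding transcripts. Capitals mark matches to CCAAT (read as ATTGG on the other strand), the box bound by NF-Y, a known partner of SREBP.
Srebf1, chr11:60111469-60111718, minus strand: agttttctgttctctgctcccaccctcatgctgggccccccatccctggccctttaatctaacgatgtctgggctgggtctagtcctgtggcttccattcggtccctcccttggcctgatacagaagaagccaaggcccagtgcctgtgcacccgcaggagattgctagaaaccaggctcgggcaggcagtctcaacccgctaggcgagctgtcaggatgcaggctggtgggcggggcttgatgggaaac
Srebf2, chr15:82031132-82031381, plus strand: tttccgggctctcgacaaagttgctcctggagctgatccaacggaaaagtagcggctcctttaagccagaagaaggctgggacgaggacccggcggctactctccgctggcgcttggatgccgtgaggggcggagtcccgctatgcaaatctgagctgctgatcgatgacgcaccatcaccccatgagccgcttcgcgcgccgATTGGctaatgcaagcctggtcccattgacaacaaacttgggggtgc
Insig1, chr5:28276077-28276314, plus strand: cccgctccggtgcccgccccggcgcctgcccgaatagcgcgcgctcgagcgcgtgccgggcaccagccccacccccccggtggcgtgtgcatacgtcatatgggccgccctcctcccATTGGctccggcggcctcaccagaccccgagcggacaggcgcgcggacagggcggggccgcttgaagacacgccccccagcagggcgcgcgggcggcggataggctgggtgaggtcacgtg
Insig2, chr1:121255795-121256044, minus strand: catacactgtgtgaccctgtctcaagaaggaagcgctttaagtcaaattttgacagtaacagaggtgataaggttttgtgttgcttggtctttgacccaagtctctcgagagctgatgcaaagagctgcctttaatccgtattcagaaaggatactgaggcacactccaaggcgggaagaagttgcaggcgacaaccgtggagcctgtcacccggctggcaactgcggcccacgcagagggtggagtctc
CCAAT was present in the Srebf2 and Insig1 windows and in neither the Srebf1 nor the Insig2 window. Motif shares, here and below, were counted on the full 250 bases before the start, with the exon bases left out of the printed windows. Over all 21757 such windows of protein-coding genes, 36.5% held CCAAT on either strand, and 18 of the 32 did (56.2%).

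A second motif, a sterol regulatory element spelled TCACNCCAC and searched on both strands, was in 1.12% of all promoters and in 3 of the 32, those of Hmgcs1, Acaca and Fasn. The Hmgcs1 and Acaca windows are printed because they hold it, chosen after the search, with that motif and CCAAT in capitals. The Fasn window lies in an exon of another transcript.
Hmgcs1, chr13:120151732-120151914, plus strand: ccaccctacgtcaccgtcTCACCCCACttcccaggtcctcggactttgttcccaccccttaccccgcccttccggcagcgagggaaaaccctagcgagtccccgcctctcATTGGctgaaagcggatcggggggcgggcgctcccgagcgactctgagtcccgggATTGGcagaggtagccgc
Acaca, chr11:84063698-84063947, plus strand: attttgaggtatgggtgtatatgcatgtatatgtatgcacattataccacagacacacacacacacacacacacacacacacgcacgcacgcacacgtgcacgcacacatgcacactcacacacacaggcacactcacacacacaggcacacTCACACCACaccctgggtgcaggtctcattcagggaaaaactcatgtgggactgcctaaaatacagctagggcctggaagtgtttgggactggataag
The match at Hmgcs1 lies 232 to 224 bases before the start with 2 CCAAT boxes downstream of it, and the match at Acaca lies 98 to 90 bases before the start in a CA repeat. The GC box GGGCGG, bound by Sp1, was in 18 of the 32 promoters against 36.3% of all, and the E-box CACGTG in 5 of 32 against 6.26%. A match is a description of the letters, and binding was not measured.

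Stard4 moves sterol between membranes. It averaged 36.8 ± 8.01 CPM in astrocytes, 19.9 ± 3.68 CPM in OPCs, 15.6 ± 5.77 CPM in oligodendrocytes and 3.61 ± 1.35 CPM in microglia. Astrocytes were called above all others and microglia below, as for most enzymes, and every microglia library lay below every other library.

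The 3 genes of fatty acid synthesis each had their own order. Acly makes cytosolic acetyl-CoA from citrate, Acaca carboxylates it to malonyl-CoA, and Fasn builds palmitate. Fasn ranged from 356 to 516 CPM in astrocytes (median 420), 260 to 369 CPM in OPCs (median 299.6), 178 to 321 CPM in oligodendrocytes (median 243) and 19.9 to 34.3 CPM in microglia (median 28.4). Every step of that order was called, and the microglia libraries lay far below the rest. The step from OPCs to oligodendrocytes (−0.31, adjusted p 0.0194, edgeR) was lost with the mouse as a block (0.0647), with DESeq2 size factors (0.0705) and without the Rag2-/- oligodendrocyte library of pair 6 (0.0646), and that from astrocytes to OPCs (−0.50) was −0.11 with total counts (0.425). Acaca averaged 37.7 ± 9.49 CPM in oligodendrocytes, 37.5 ± 6.01 CPM in astrocytes, 25.7 ± 4.82 CPM in OPCs and 6.20 ± 1.92 CPM in microglia, with the first pair not called different (adjusted p 0.975, edgeR). Acaca was called higher in oligodendrocytes than in OPCs (log2 0.55, adjusted p 0.00753, edgeR). With total counts this difference turned to −0.45 (adjusted p 0.0319). The call was also lost with control (0.0510) or Rag2-/- libraries alone (0.138) and without the filter on low counts (0.0685). Copies elsewhere in the genome cover 65.3% of the Acaca windows.

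Acly was the 1 gene of the 32 that was lowest in oligodendrocytes. It ranged from 23.9 to 52.7 CPM in oligodendrocytes (median 31.7), 36.6 to 72.3 CPM in OPCs (median 49.9), 56.1 to 86.2 CPM in astrocytes (median 74.1) and 49.9 to 93.3 CPM in microglia (median 70.0). Oligodendrocyte libraries lay below all astrocyte libraries and overlapped OPCs and microglia. Oligodendrocytes were lower than microglia by −1.05 ± 0.13 on the log2 scale (adjusted p 2.62e-09, edgeR) and OPCs by −0.46 ± 0.11 (0.00047; −0.32 and 0.0902 with Rag2-/- libraries alone), while astrocytes and microglia were not called different (0.964). Microglia thus held Acly at astrocyte level and Fasn at 28.4 ± 3.95 CPM against 422 ± 45.4 CPM in astrocytes.

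Scd1 and Scd2 encode delta-9 desaturases, which make oleate and palmitoleate. Scd1 ranged from 573 to 778 CPM in oligodendrocytes (median 678), 266 to 403 CPM in astrocytes (median 313), 41.3 to 94.2 CPM in OPCs (median 78.3) and 1.43 to 6.66 CPM in microglia (median 5.30). Scd2 ranged from 1321 to 3217 CPM in oligodendrocytes (median 2403), 1515 to 2357 CPM in astrocytes (median 2048), 744 to 1054 CPM in OPCs (median 926) and 32.2 to 59.8 CPM in microglia (median 44.3). Scd1 split the 43 libraries into 4 bands with no overlap, one for each cell type, whereas Scd2 gave 3, with oligodendrocytes and astrocytes in one.

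Oligodendrocytes exceeded OPCs by 3.21 ± 0.17 on the log2 scale for Scd1 (adjusted p 5.94e-19, edgeR) and by 1.36 ± 0.12 for Scd2 (3.84e-12). They exceeded astrocytes by 1.09 ± 0.16 for Scd1 (2.71e-07), and Scd2 differed by 0.23 ± 0.12 (0.110) there. Both desaturases were lower in OPCs than in astrocytes, Scd1 by −2.12 ± 0.16 and Scd2 by −1.13 ± 0.11. Over microglia, the log2 fold changes of Scd1 were 7.22 ± 0.20 in oligodendrocytes, 6.14 ± 0.18 in astrocytes and 4.02 ± 0.17 in OPCs, and those of Scd2 were 5.65 ± 0.14, 5.42 ± 0.13 and 4.29 ± 0.12. With total counts in place of TMM, Scd2 was −0.39 in oligodendrocytes against astrocytes, so the direction of that difference depended on the scale. Oligodendrocyte markers, which stood in astrocyte libraries at a median of 24.2% of their oligodendrocyte level, moved with this comparison, and their part in the astrocyte level of Scd1 and Scd2 was not tested.

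Levels per kilobase of transcript were ranked for 27 genes, without the 5 genes of which over 30% of windows are copied elsewhere (Acat2, Idi1, Fdps, Insig1 and Acaca). Scd2 was the highest of the 27 in oligodendrocytes (425 CPM per kilobase), astrocytes (360) and OPCs (164). Scd1 followed in oligodendrocytes at 137 CPM per kilobase but stood at 14.8 in OPCs, below 9 of the ranked genes, of which Msmo1 (51.1) and Elovl5 (43.6) came next after Scd2. In microglia the highest of the 27 per kilobase were Elovl1 (27.02), Msmo1 (17.9) and Acly (16.1), and Scd2 stood at 8.403. The Scd1 promoter is shown as that of the gene with the second widest range across cell types, with 2 CCAAT boxes in capitals.
Scd1, chr19:44396341-44396590, minus strand: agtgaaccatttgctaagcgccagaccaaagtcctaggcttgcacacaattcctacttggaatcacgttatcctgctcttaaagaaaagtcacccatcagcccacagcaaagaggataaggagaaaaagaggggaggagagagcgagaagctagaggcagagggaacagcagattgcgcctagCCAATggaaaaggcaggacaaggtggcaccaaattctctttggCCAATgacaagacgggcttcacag

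The elongases divided 3 ways. Elovl1 extends very long saturated and monounsaturated chains, Elovl5 polyunsaturated chains, and Elovl6 the step from palmitate to stearate. Elovl1 ranged from 40.2 to 63.5 CPM in microglia (median 52.0), 23.4 to 72.6 CPM in oligodendrocytes (median 52.9), 17.8 to 38.999 CPM in astrocytes (median 22.95) and 8.57 to 21.4 CPM in OPCs (median 14.7). Microglia lay above all astrocyte and OPC libraries and within the range of oligodendrocytes. Elovl1 was lower than in microglia by −1.81 ± 0.18 in OPCs (adjusted p 4.55e-12, edgeR) and −1.04 ± 0.17 in astrocytes (6.72e-07), and oligodendrocytes exceeded OPCs by 1.71 ± 0.19 (8.77e-10) and astrocytes by 0.93 ± 0.18 (4.2e-05). With total counts the last difference was 0.30 and not called (adjusted p 0.185).

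Elovl6 ran the other way, with 35.7 to 126 CPM in oligodendrocytes (median 90.8), 66.8 to 96.3 CPM in OPCs (median 80.9), 34.8 to 63.7 CPM in astrocytes (median 50.8) and 0.302 to 2.43 CPM in microglia (median 1.497). It was the 1 gene of the 32 called higher in OPCs than in astrocytes, by 0.72 ± 0.18 (adjusted p 0.00131, edgeR; 0.0611 with control libraries alone), and the OPC libraries lay wholly above the astrocyte libraries. Over microglia it was higher by 5.90 ± 0.24 in oligodendrocytes and 5.86 ± 0.23 in OPCs. Oligodendrocytes exceeded astrocytes by 0.76 for Elovl6 (adjusted p 0.00145, edgeR). That call was lost with total counts (0.14, adjusted p 0.599) and with Rag2-/- libraries alone (0.47, 0.119). Elovl5 averaged 379 ± 27.99 CPM in astrocytes, 129 ± 25.8 CPM in OPCs, 118 ± 25.6 CPM in oligodendrocytes and 32.9 ± 5.76 CPM in microglia, which is the order of the sterol enzymes. Its OPC and oligodendrocyte levels were not called different (adjusted p 0.362).

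Other cells were set beside these levels, first in the microglia libraries. The 32 genes stood in microglia at a median of 9.27% of their astrocyte level, from 0.491% for Idi1 to 205% for Elovl1. The 8 astrocyte markers stood there at a median of 0.848%, from 0.481 to 3.67%, and 5 of the 32 genes were at or below the highest marker. For the other 27 genes, the level in microglia was above any astrocyte marker's share. In OPC libraries the astrocyte markers stood at 8.35 to 17.3% of their astrocyte level, and 1 of the 32 genes was at or below the highest (Idi1, 15.8%). In oligodendrocyte libraries the astrocyte markers stood at 3.35 to 12.4%, and the OPC markers at 10.1 to 34.3% of their OPC level. For each of these sets, 0 of the 32 genes were at or below the highest marker. The part of other cells in these levels was not tested.

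From a wider list of 31 genes of lipid synthesis, transport and its regulation, 29 passed the filter on low counts. Against microglia, astrocytes were called higher for 18 and lower for 5 (36.5% and 33.5% of all genes tested). OPCs were higher than microglia for 18 and lower for 5 (38.7% and 30.8%), and oligodendrocytes for 15 and 6 (33.2% and 34.8%). OPCs were higher than astrocytes for 5 and lower for 17 (25.4% and 17.1%). Oligodendrocytes were higher than astrocytes for 6 and lower for 15 (25.7% and 24%), and than OPCs for 6 and 9 (15.7% and 25%). In that order the medians of the 29 genes were 1.90, 0.77, 0.53, −0.61, −0.40 and −0.18. Each had the sign of the 32 genes and, except in the last, was nearer to 0. The medians over all genes are given above. The desaturase Scd3 behaved like Scd1, with 42.1 ± 15.5 CPM in oligodendrocytes, 10.5 ± 6.09 CPM in astrocytes, 2.31 ± 2.05 CPM in OPCs and 0.129 ± 0.229 CPM in microglia, and a log2 fold change of 4.30 ± 0.45 for oligodendrocytes over OPCs (adjusted p 2.2e-10, edgeR).

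The elongase Elovl7 was higher in oligodendrocytes (79.1 ± 24.5 CPM) than in OPCs (11.7 ± 2.98 CPM) by 2.76 ± 0.32 on the log2 scale (adjusted p 2.65e-09, edgeR) and than in microglia (0.625 ± 0.528 CPM) by 6.93 ± 0.38. Elovl2, which extends polyunsaturated chains, stood at 116 ± 13.2 CPM in astrocytes, 11.1 ± 6.05 CPM in OPCs, 7.02 ± 7.05 CPM in oligodendrocytes and 1.68 ± 0.826 CPM in microglia. Fads2, the delta-6 desaturase, stood at 310.2 ± 34.3 CPM in astrocytes, 124 ± 11.1 CPM in OPCs, 35.6 ± 15.6 CPM in oligodendrocytes and 3.99 ± 2.48 CPM in microglia. Thrsp, a lipogenic gene, was lower in OPCs than in astrocytes by −2.90 ± 0.36 (adjusted p 1.04e-08), and Elovl4 was higher in OPCs than in microglia by 5.87 ± 0.36. Astrocyte markers stood at up to 17.3% of their astrocyte level in OPC libraries and up to 12.4% in oligodendrocyte libraries. Their part in the OPC and oligodendrocyte levels of Elovl2, Fads2 and Thrsp was not tested. In microglia the ligase gene Mylip, which directs lipoprotein receptors to degradation, stood at 250.8 ± 25.2 CPM against 2.88 ± 1.41 CPM in astrocytes, 8.34 ± 8.13 CPM in oligodendrocytes and 13.7 ± 5.82 CPM in OPCs. Npc2, which exports lysosomal cholesterol, stood at 423 ± 41.7 CPM in microglia against 68.2 ± 18.5 CPM in OPCs, a log2 fold change of −2.65 ± 0.17 for OPCs against microglia (adjusted p 2.71e-17).

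Low counts limited several genes of the wider list. In microglia, libraries held 0 to 7 reads of Scd3, 0 to 20 of Elovl4 and 0 to 23 of Elovl7. The size of the Elovl4 and Elovl7 differences from microglia therefore rests on few reads. Acacb, which makes malonyl-CoA at mitochondria, and Nr1h3, the oxysterol receptor LXR alpha, were lower in oligodendrocytes (1.03 ± 1.47 and 0.140 ± 0.177 CPM) than in astrocytes (8.64 ± 3.44 and 3.21 ± 1.91 CPM), by −4.46 ± 0.70 (adjusted p 9.16e-07, edgeR; −1.99 with control libraries alone) and −4.33 ± 0.63 (2.43e-07). Nr1h3 was also lower than in OPCs, by −2.74 ± 0.61, and than in microglia, by −3.92 ± 0.62. Acacb differed from OPCs by −2.70 ± 0.69, but by −0.034 (adjusted p 0.982) with control libraries alone, so that difference rested on the Rag2-/- libraries. Faxdc2 averaged 1.12 CPM or less in all cell types. Its calls in oligodendrocytes over astrocytes (2.34 ± 0.86, adjusted p 0.0210) and OPCs over astrocytes (2.00 ± 0.79, 0.0382) were lost without single oligodendrocyte libraries, the first without the Rag2-/- library of pair 1 (0.120) or the control of pair 5 (0.0736) or 6 (0.0547), the second without the control of pair 1 (0.0512) or 5 (0.0542).

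The next question was whether the absence of lymphocytes changed these genes within a cell type. Rag2-/- libraries were compared with control libraries in each cell type, with sex as a covariate. No gene of the 32 was called in any of the 4 cell types (edgeR's quasi-likelihood test), where the share of all genes called was 0.00667% in microglia, 0.00679% in astrocytes, 0.00592% in OPCs and 0% in oligodendrocytes. All 32 were tested in oligodendrocytes, OPCs and astrocytes and 30 in microglia, where Idi1 and Fdps fell below the filter. DESeq2 on all genes also called none of the 32, while it called 206 genes in oligodendrocytes.

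At an unadjusted p under 0.05 there were 1, 2, 0 and 1 of the 32 genes in oligodendrocytes, OPCs, astrocytes and microglia, beside 3.38%, 4.02%, 2.87% and 2.91% of all genes. Median log2 fold changes over the 32 were 0.04, 0.07, 0.02 and 0.04. No gene of the 32 had control and Rag2-/- libraries that did not overlap, beside 2.31%, 0.403%, 0.122% and 0.133% of all genes. The summed level of the 18 sterol enzymes was 705 ± 144 CPM in control and 738 ± 62.9 CPM in Rag2-/- oligodendrocytes (n = 4 each), 768 and 833 CPM in OPCs, 2160 and 2181 CPM in astrocytes, and 193 and 189.9 CPM in microglia.

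**Figure D3:**
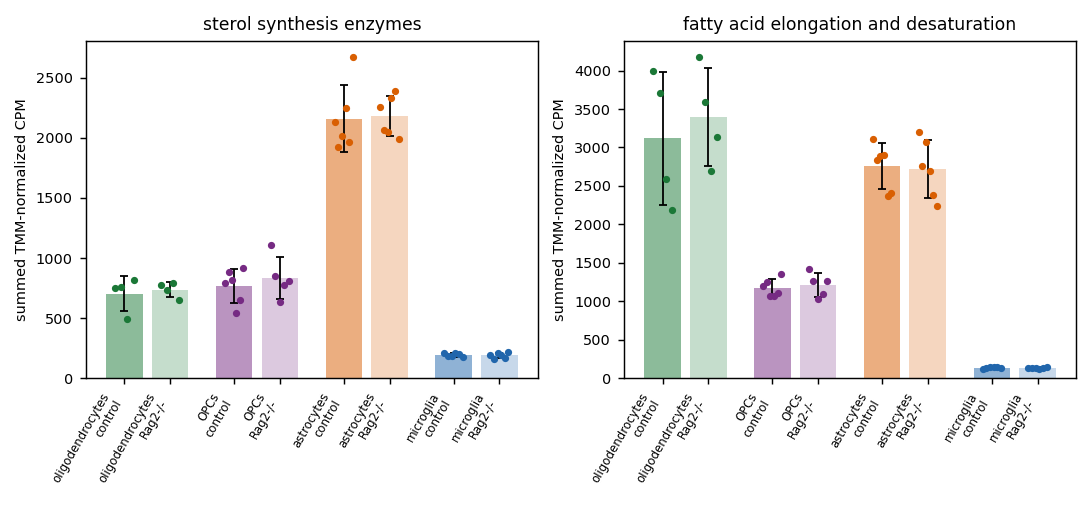
Summed TMM-normalized CPM of the 18 sterol synthesis enzymes (left) and the 5 elongation and desaturation genes (right) by cell type and genotype, with bars for the mean, error bars for the SD and a dot per library. Control and Rag2-/- bars stand side by side within each cell type, at 2160 and 2181 CPM for the sterol enzymes in astrocytes, and the ranges of the 2 genotypes overlap in every cell type.

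In oligodendrocytes the genes with the smallest p were Hsd17b7, Sqle and Insig1. Hsd17b7 stood at 31.9, 43.5, 7.39 and 12.3 CPM in the controls of pairs 1, 3, 5 and 6 and at 33.8, 69.5, 32.9 and 18.6 CPM in their Rag2-/- littermates. Sqle stood at 75.4, 67.3, 59.7 and 138 CPM in the controls and at 39.2, 44.4, 40.6 and 69.7 CPM in the Rag2-/- libraries. Hsd17b7 was higher and Sqle lower in the Rag2-/- library of each of the 4 pairs, and the 2 groups overlapped for both genes. Both genes were picked by their p in these same libraries, so the agreement of the pairs is only a description. The mice of pair 6 also differed in sex. The log2 fold changes were 1.13 ± 0.50 for Hsd17b7 (p 0.0453, adjusted p 0.998, edgeR), −0.86 ± 0.39 for Sqle (p 0.0505, adjusted p 0.998) and 0.53 ± 0.29 for Insig1 (p 0.0927).

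In OPCs, Mvk ranged from 6.39 to 12.3 CPM in 6 control libraries (median 8.70) and stood at 15.9, 13.8, 10.2, 8.74 and 17.5 CPM in the Rag2-/- libraries of pairs 1, 2, 3, 4 and 6. Nsdhl ranged from 11.3 to 22.1 CPM in controls (median 13.8) and stood at 34.6, 28.1, 12.1, 23.2 and 22.7 CPM in the same Rag2-/- libraries. All 5 Rag2-/- libraries stood above the control median for Mvk and 4 of 5 did for Nsdhl, and the groups overlapped for both. These genes too were picked by their p in the same libraries. The log2 fold changes were 0.53 ± 0.22 for Mvk (p 0.0302, adjusted p 1.00, edgeR), 0.60 ± 0.27 for Nsdhl (p 0.0381) and 0.32 ± 0.17 for Acly (p 0.0731).

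In microglia, Srebf1 ranged from 10.6 to 14.9 CPM in 6 controls (median 12.5) and from 12.6 to 27.3 CPM in 6 Rag2-/- libraries (median 14.4). The Rag2-/- libraries of pairs 4 and 6, at 22.8 and 27.3 CPM, were high and the other 4 lay near the controls. The log2 fold change was 0.45 ± 0.21 (p 0.0405, adjusted p 0.999, edgeR), beside 0.24 ± 0.14 for Srebf2 (p 0.108) and −0.26 ± 0.13 for Scd2 (p 0.0527). In astrocytes the smallest p values belonged to Ebp (0.39 ± 0.26, p 0.151), Scd1 (0.14 ± 0.10, p 0.171) and Tm7sf2 (0.25 ± 0.20, p 0.215).

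Over the 4 cell types, the genotype log2 fold changes ran from −0.22 to 0.45 for Srebf1, 0.01 to 0.24 for Srebf2, −0.03 to 0.53 for Insig1, −0.20 to 0.22 for Insig2, −0.30 to 0.26 for Scd1 and −0.26 to 0.28 for Scd2. None of these was called. The 95% interval for Scd1 in astrocytes ran from −0.06 to 0.34, and that for Insig1 in oligodendrocytes, with 4 libraries a group, from −0.10 to 1.16, so a log2 fold change of 1 for Insig1 lay within the interval there.

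**Figure D4:**
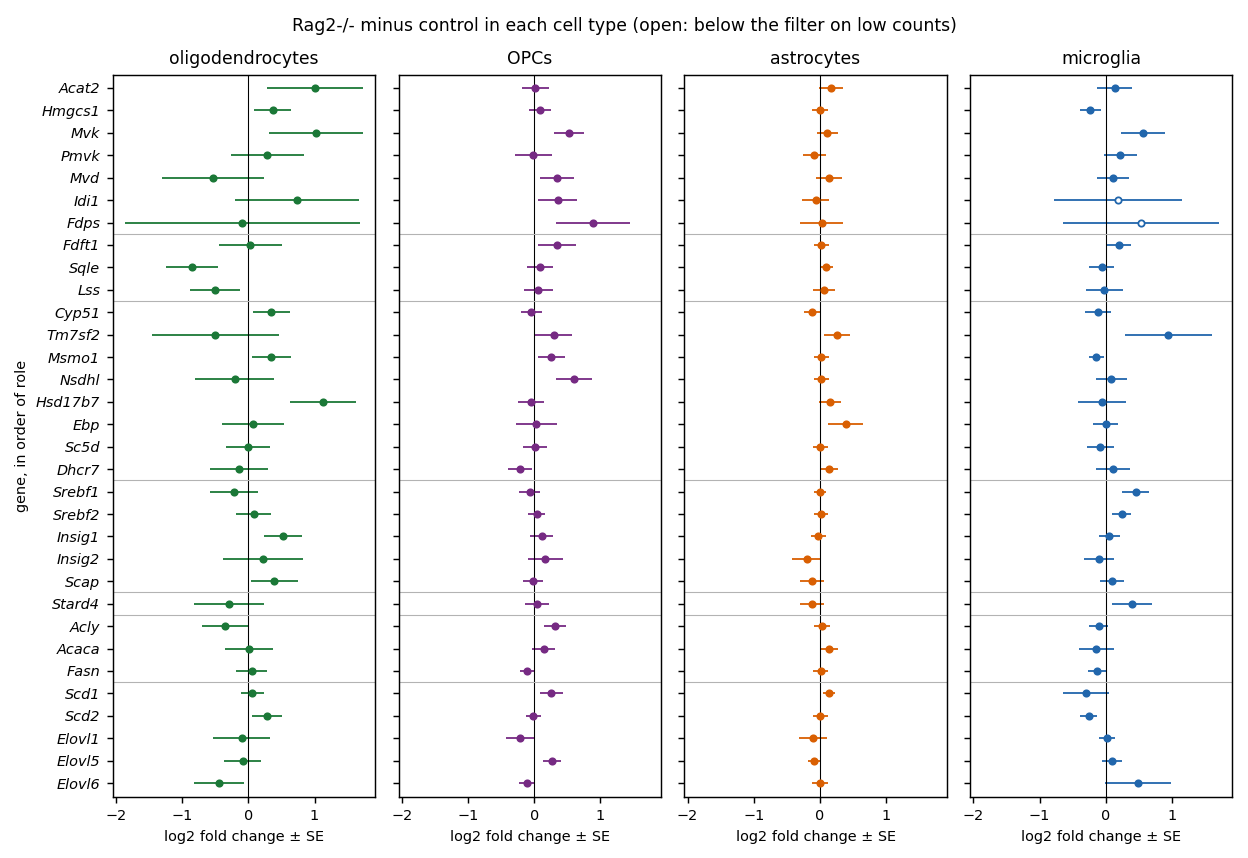
Log2 fold change of Rag2-/- minus control with its standard error for each gene in each cell type, open circles marking genes below the filter on low counts. The points scatter about 0 in each panel, with medians of 0.04, 0.07, 0.02 and 0.04 over the genes tested, and the widest error bars are those of oligodendrocytes and of rare genes in microglia.

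The genotype effect in oligodendrocytes was also set against its mean in the other 3 cell types, in the fit of 43 libraries. No gene of the 32 was called (edgeR), where 2.54% of the 21368 genes were called, a total of 542 that became 100 with the mouse as a block. Sqle came nearest, at −0.87 ± 0.26 (p 0.00205, adjusted p 0.0611, edgeR), followed by Acly at −0.51 ± 0.22 (adjusted p 0.188) and Hmgcs1 at 0.51 ± 0.22 (adjusted p 0.195). Sqle stood at 85.1 ± 35.9 CPM in control and 48.4 ± 14.3 CPM in Rag2-/- oligodendrocytes, at 90.0 and 96.1 CPM in OPCs, 191 and 203 CPM in astrocytes and 13.9 and 13.6 CPM in microglia.

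The Sqle value turned on single settings and libraries. It passed the threshold without the filter on low counts (adjusted p 0.0358, edgeR), with DESeq2 (0.0299), and without the control oligodendrocyte library of pair 1 (0.0465), 3 (0.0332) or 5 (0.0355) or the Rag2-/- one of pair 6 (0.0203). Without the control library of pair 6, the highest at 138 CPM, it was −0.53 (adjusted p 0.278), and with the mouse as a block the adjusted p was 0.113. Over all settings it ran from 0.0203 to 0.278. Of the wider list, Acacb was called (adjusted p 0.0134), from 5, 5, 17 and 23 reads in control oligodendrocytes of pairs 1, 3, 5 and 6 and 1, 0, 1 and 0 reads in their Rag2-/- littermates. Acacb did not pass the filter in the fit of oligodendrocytes alone and entered this one through cell types where it is higher, so its call is given as a description and its fitted fold change is no bound.

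Sex was compared in the same models, female minus male. No gene of the 32 was called in any cell type (edgeR), where the share of all genes called was 0.0467% in microglia, 0.0407% in astrocytes, 0.0296% in OPCs and 0.0362% in oligodendrocytes. At an unadjusted p under 0.05 there were 4, 3, 5 and 1 of the 32, beside 8.23%, 4.3%, 6.73% and 3.92% of all genes. With the pair as a block, sex could be estimated only from pair 6, the 1 pair of mixed sex, and calls over all genes changed from 5 to 1 in oligodendrocytes and from 6 to 19 in astrocytes, still with none of the 32.

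The astrocyte libraries held the smallest p values. Elovl6 stood between 34.8 and 46.6 CPM in 5 female libraries (median 36.4) and between 49.2 and 63.7 CPM in 7 male libraries (median 56.9). Cyp51 ranged from 113 to 165 CPM in females (median 145) and from 150.4 to 238 CPM in males (median 197), and Scd1 from 266 to 309 CPM (median 290) and from 299.7 to 403 CPM (median 363). Every female library was below every male library for Elovl6, the 1 gene of the 32 without overlap (0.421% of all genes in astrocytes), and the ranges overlapped for Cyp51 and Scd1.

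The log2 fold changes were −0.57 ± 0.13 for Elovl6 (p 0.000271, adjusted p 0.333, edgeR), −0.49 ± 0.13 for Cyp51 (p 0.00162, adjusted p 0.633) and −0.30 ± 0.10 for Scd1 (p 0.00748, adjusted p 0.715). DESeq2 on all genes called Elovl6 (adjusted p 0.0158), and edgeR without the filter on low counts called Cyp51 (0.0458). Over the settings tried, the adjusted p ran from 0.0158 to 0.761 for Elovl6 and from 0.0458 to 0.662 for Cyp51. The summed level of the 32 genes was 5437 to 6240 CPM in female and 6241 to 6754 CPM in male astrocytes. Without Scd1 and Scd2 the sums overlapped, at 3612 to 4181 CPM in female and 3767 to 4528 CPM in male astrocytes. The 8 oligodendrocyte markers summed to 2239 ± 381 CPM in female and 2633 ± 747 CPM in male astrocyte libraries, and their part in the difference was not tested.

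**Figure D5:**
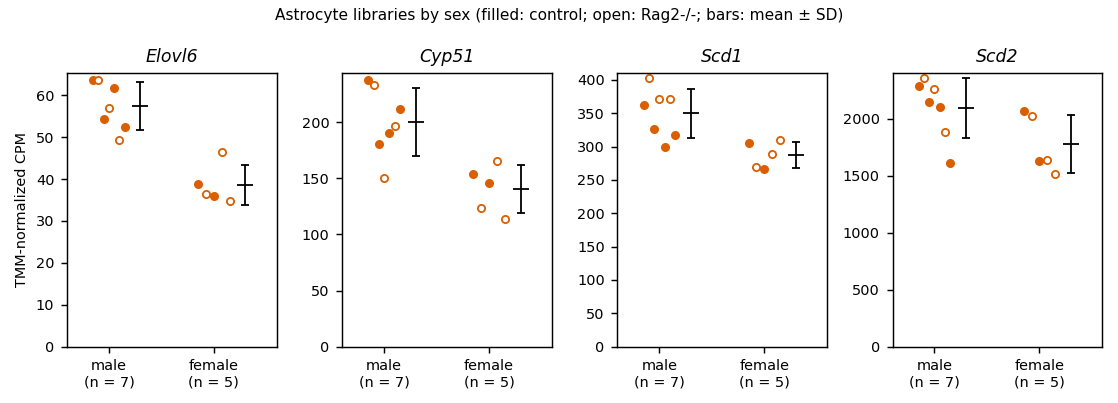
TMM-normalized CPM of Elovl6, Cyp51, Scd1 and Scd2 in 7 male and 5 female astrocyte libraries, filled for control and open for Rag2-/-, with the mean and SD at the side of each group. The female points of Elovl6 lie between 34.8 and 46.6 CPM and the male points between 49.2 and 63.7 CPM, while the groups overlap for the other genes.

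In oligodendrocytes, with 3 female and 5 male libraries, Pmvk stood at 4.17, 4.90 and 12.6 CPM in females and ranged from 16.999 to 34.98 CPM in males (median 24.03), and Nsdhl, an X-linked gene, stood at 6.997, 38.5 and 49.4 CPM in females and ranged from 6.28 to 13.4 CPM in males (median 10.8). Pmvk differed by −1.89 ± 0.60 (p 0.00849, adjusted p 0.505, edgeR; 0.0289 by DESeq2 and 0.0289 to 0.800 over all settings), Nsdhl by 1.81 ± 0.60 (p 0.0116) and Hsd17b7 by −1.26 ± 0.54 (p 0.0377). Female and male libraries did not overlap for Pmvk, Lss, Ebp and Acly, 4 of 32 genes beside 6.5% of all genes. Neuron markers summed to 2340 to 2420 CPM in the female libraries and 623 to 3105 CPM in the male ones, and their part was not tested.

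In OPCs the smallest p values were those of Mvd (−0.72 ± 0.28, p 0.0210), Mvk (0.51 ± 0.23, p 0.0391) and Insig2 (−0.59 ± 0.27, p 0.0486), and in microglia those of Msmo1 (−0.25 ± 0.12, p 0.0465), Hsd17b7 (0.69 ± 0.36, p 0.0705) and Stard4 (0.52 ± 0.31, p 0.104), with adjusted p values of 0.999 or more (edgeR). Across the 4 cell types, sex differences ran from −0.69 to 0.14 for Srebf1, −0.37 to 0.10 for Srebf2, −0.37 to 0.03 for Insig1, −0.59 to 0.05 for Insig2, −0.30 to 0.35 for Scd1 and −0.41 to 0.09 for Scd2, none of them called.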

How the data were processed

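RNA from 43 immunopanned samples was amplified and sequenced by the authors as read pairs, aligned to GRCm39 with STAR 2.7.8a and counted on Ensembl genes with HTSeq (tool names from the submitters' processing notes). The deposited values are raw counts per gene, 1 table per library. The counting mode and strand setting are not given in the sources used here, so overlapping genes are uncertain. Rows for reads on no gene, on several genes or aligned in several places held 33.5 to 52.0% of each table and stayed out of library sizes.

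Counts per library ranged from 6499417 to 23118497. No molecular identifiers were used, so counts carry amplification error as well as counting error. Genotype and sex were tested in each cell type with edgeR 4.0.16 (TMM, filterByExpr with a minimum count of 10 and a total of 15, quasi-likelihood test, two-sided, Benjamini-Hochberg, threshold 0.05) under R 4.3.3, and cell types in 1 fit of all 43 libraries with 8 groups and sex. Standard errors are the log2 fold change over the square root of F. Alternatives were other size factors or total counts, other filters, DESeq2 1.42.0, blocks, left-out libraries and subsets of controls. The scripts were tested on simulated counts. Of 55416 gene identifiers, 54749 had an entry in GENCODE M39, which gave positions.

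Littermate numbers come from the labels and pair the samples. Same-pair libraries deviated together with a mean correlation over genes of 0.0865 in microglia, 0.135 in astrocytes, 0.0889 in OPCs and 0.111 in oligodendrocytes, where other pairings gave −0.0176, −0.0258, −0.0176 and −0.0359, and libraries of the same mouse with 0.0279 against −0.00206. Replicates are separate mice.

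The 32 genes and the other lists were chosen with earlier results of these data known. Fold changes with errors are given for genes with an unadjusted p under 0.05 in a genotype comparison or the interaction, the 3 genes with the smallest p for each genotype or sex comparison, the 3 called genes with the largest change in each direction between cell types, and the Srebf, Insig and Scd pairs. Of the wider list they are given for the 2 genes with the largest change in each direction. Other genes were named after their values were seen.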

Additional observations from a re-analysis of the deposited data

Results flagged for a closer look

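A library was singled out when its gap to the nearest library of its group exceeded Dixon's 95% critical value, tested in 264 groups of 4 to 6 libraries of the same gene, cell type and genotype. This marked 14 values, where 13.2 are expected by chance, and 7 of the 14 lay in oligodendrocyte groups of 4.

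Among oligodendrocytes, the Rag2-/- library of pair 6 stood high for Fdps at 14.7 CPM (others 1.89 to 3.65) and for Sqle at 69.7 CPM (39.2 to 44.4). The Rag2-/- library of pair 3 stood high for Fdft1 at 40.4 CPM (32.2 to 33.3) and for Insig2 at 20.3 CPM (9.52 to 11.3). The Rag2-/- library of pair 5, from a female, stood high for Nsdhl at 49.4 CPM (6.997 to 12.5), and that of pair 1 for Stard4 at 23.1 CPM (10.2 to 12.1). The control library of pair 3 stood low for Stard4 at 8.396 CPM (19.1 to 21.1).

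Among astrocytes, the Rag2-/- library of pair 1 stood high for Acat2 at 43.5 CPM (20.2 to 28.3), that of pair 2 for Elovl1 at 38.3 CPM (19.3 to 24.4), and the control of pair 6 for Sqle at 238 CPM (172 to 190.1). Among microglia, the control of pair 3 stood low for Hmgcs1 at 16.2 CPM (19.7 to 21.8), the Rag2-/- library of pair 1 low for Insig1 at 22.2 CPM (34.5 to 39.8), that of pair 6 high for Idi1 at 1.27 CPM (0.0803 to 0.392), and that of pair 5 high for Acaca at 9.99 CPM (5.18 to 5.94, with 1 library at 4.42).

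Acacb was singled out by the test of the genotype effect in oligodendrocytes minus the mean effect elsewhere, at −5.53 on the log2 scale (adjusted p 0.0134, edgeR's quasi-likelihood test). The value rests on 0 to 1 reads in each of 4 Rag2-/- oligodendrocyte libraries and 5 to 23 in their littermate controls, and it is no bound. The gene fell below the filter on low counts in the fit of oligodendrocytes alone, so the value does not show that the response to genotype differed.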

How the results depend on the processing

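Of the results that answer a comparison, 447 values over the settings kept their call or stayed within 1.5 times and 53 moved. Of single genes, 1689 values kept direction and call, 33 lost and 10 gained the call, and 14 changed sign. No value of the 32 genes was called for genotype in any setting. Without the filter on low counts, calls over all genes went from 0 to 14 (genotype) and 5 to 99 (sex) in oligodendrocytes, 1 to 90 and 5 to 72 in OPCs, 1 to 30 and 6 to 118 in astrocytes, and 1 to 9 and 7 to 25 in microglia, and in the interaction from 542 to 1309, with 1 of the 32 called there and 1 for sex in astrocytes. With DESeq2 they became 206 and 434, 5 and 13, and 18 for sex in astrocytes, 3 and 11 in microglia and 1360 in the interaction, with 1 of the 32 called for sex in oligodendrocytes, for sex in astrocytes and in the interaction. A minimum mean count of 10 gave 3 for genotype in microglia.

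With the pair as a replicate block, sex calls were 1 in oligodendrocytes and 19 in astrocytes, and Stard4 for sex in microglia turned from 0.52 to −0.37. With the mouse as a replicate block the interaction had 100 calls. The block changed no other call besides those of Srebf1, Insig2, Fasn and Hsd17b7 given above. With total counts in place of TMM, oligodendrocytes against OPCs had 14634 calls in place of 8704, with 31 of the 32 in place of 15, Srebf2 at −1.02 and Insig1 at −0.96. On that scale 2 of the 32 were higher in oligodendrocytes than in astrocytes, Scd2 was −0.39 there, Insig2 was −0.70 in oligodendrocytes against microglia and 0.17 in OPCs against astrocytes, and the interaction had 325 calls. The summed level of the 32 genes, 4634, 2719, 6250 and 565 CPM in oligodendrocytes, OPCs, astrocytes and microglia, became 2883, 3452 and 658 CPM in the first, second and last with total counts, so that oligodendrocytes fell below OPCs, and 6571, 3849, 9470 and 826 CPM with mitochondrially encoded genes left out.

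Control libraries alone gave 5194 calls between oligodendrocytes and OPCs with 6 of the 32 and Insig1 at −0.074, and 5997 between OPCs and astrocytes with 0 of the 32 higher in OPCs. Rag2-/- libraries alone gave 5402 with 7 of the 32 and 4970, and Srebf2 was −0.026 between oligodendrocytes and OPCs there and −0.031 without the filter. These subsets hold fewer samples, and the cause of the other changes was not tested. Leaving out single oligodendrocyte libraries, chosen after seeing the data, gave −0.083 to 0.084 for Srebf2 and −0.042 to 0.13 for Insig1 against OPCs, 12 to 17 of the 32 called there, and 468 to 1039 calls in the interaction (1039 without control 1, 898 without Rag2-/- 1, 863 without control 3) with 0 to 1 of the 32. That 1 was Sqle in 4 cases and Mvd without Rag2-/- 1. In the fit of oligodendrocytes alone, leaving out 1 library gave 3 to 5 sex calls, the fewest without Rag2-/- 1.

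Depth limited Idi1 and Fdps in microglia, with at most 14 and 9 reads a library, and Acacb, Nr1h3 and Faxdc2 in oligodendrocytes. It also limited Scd3, Elovl4 and Elovl7 in microglia, with at most 7, 20 and 23 reads a library. The 4 libraries a group in oligodendrocytes left the widest errors for genotype.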
